A study of Homo sapiens with 15 samples.

Results

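The cholesterol and fatty acid synthesis genes were 34 genes chosen by symbol, and all 34 were listed in each library. They hold the SREBP transcription factors with the proteins that retain them, the enzymes that lead from acetyl-CoA to cholesterol, the enzymes that make, elongate and desaturate fatty acids, and 3 genes of acetate use and sterol carriage. The libraries were made from HSC-5 cells, a skin squamous carcinoma line of human origin, and there were 15 of them, with 3 biological replicates in each of 5 groups. The control group was sgNeg, labelled WT. PRMT5KO cells carried sgPRMT5-1 or sgPRMT5-2, and WDR77KO cells carried sgWDR77-1 or sgWDR77-2. All 5 groups came from Cas9-expressing cells and all are labelled Neomycin, the resistance used to select for the sgRNA vector. The labels do not say whether the cells were clones or pools. The comparisons ask how the lipid synthesis genes differed from control when either partner of the PRMT5/WDR77 methyltransferase complex was disrupted, and whether the sgRNAs and the targeted genes differed from each other. Between 5146711 and 6730428 reads per library lay on genes, and the counts of the 34 genes ran from 12 to 22678 in a library. Values below are CPM after TMM scaling, given for replicates 1 to 3 in order. A gene was called when its adjusted p in limma voom was under 0.05, over the 14061 genes with a mean normalized count of at least 3, which all 34 genes passed.

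Cholesterol and fatty acids are both built from cytosolic acetyl-CoA, and most of their enzymes are transcribed under SREBP factors, which are held in the endoplasmic reticulum by SCAP and the INSIG proteins while sterols are plentiful. When sterols fall, SCAP escorts the SREBP precursors to the Golgi, where proteases release the active factor. Keratinocytes are known for high lipid synthesis, which supplies the barrier of the epidermis, and squamous carcinoma cells use the same enzymes for membranes.

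The targeted genes were lower under their own sgRNAs. PRMT5, an arginine methyltransferase, stood at 59.1, 49.6 and 67.8 CPM in sgNeg, at 33.0, 35.8 and 41.4 CPM in sgPRMT5-1 and at 44.1, 44.5 and 39.4 CPM in sgPRMT5-2, with no overlap between either PRMT5KO group and the controls. Its log2 fold change against sgNeg was -0.67 ± 0.13 (SE) in sgPRMT5-1, with an adjusted p of 0.00570 in limma voom, and -0.45 ± 0.13 in sgPRMT5-2, with an adjusted p of 0.0114. WDR77, the WD-repeat partner of PRMT5, stood at 125, 114 and 119 CPM in sgNeg, at 30.9, 52.0 and 53.3 CPM in sgWDR77-1 and at 26.6, 24.9 and 21.96 CPM in sgWDR77-2. Its log2 fold change was -1.43 ± 0.15 in sgWDR77-1, with an adjusted p of 2.01e-06, and -2.29 ± 0.17 in sgWDR77-2, with an adjusted p of 6.89e-09. WDR77 was lower in sgWDR77-2 than in sgWDR77-1, by a log2 fold change of -0.85 ± 0.18 and an adjusted p of 0.0157. The transcript of an edited gene can remain, so these levels check the labels and do not measure the protein.

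**Figure D1:**
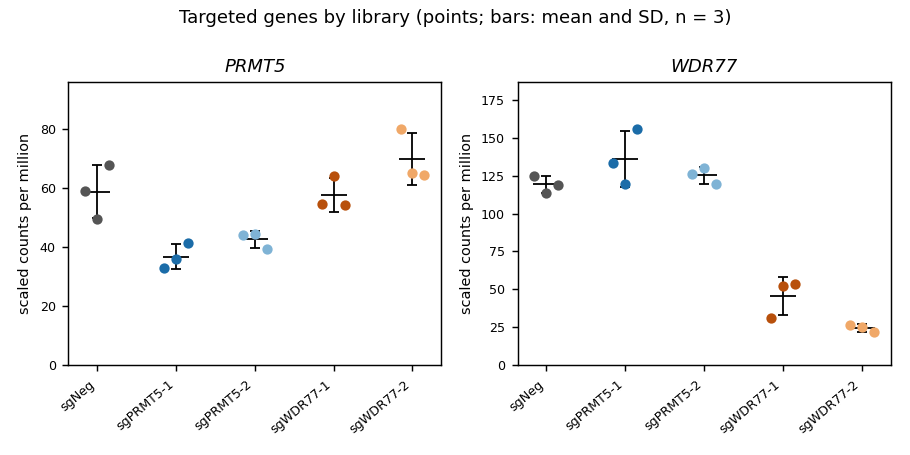
Scaled CPM (vertical axis, from 0) of PRMT5 and WDR77 in each library (points), with the mean and SD of each group (n = 3). PRMT5 is lower in all 6 PRMT5KO libraries than in the sgNeg libraries, and WDR77 is lower in all 6 WDR77KO libraries.

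Some libraries stood apart before any comparison. Replicate 1 of sgWDR77-1 differed from its partners more than any other pair of replicates did, with chi-square values over degrees of freedom of 13.7 against replicate 2 and 19.4 against replicate 3, where the 15 pairs of replicates ranged from 1.58 to 19.4. Reads outside genes made up 7.16% of the listed reads in sgNeg replicate 2, 6.04% in sgWDR77-1 replicate 2 and 5.70% in sgWDR77-1 replicate 3, and the other 12 libraries lay between 2.75% and 4.26%. Summed over the 34 genes, the level was lowest in sgNeg replicate 2, at 9061 CPM, and highest in sgWDR77-1 replicate 3, at 11960 CPM. The part of these library differences in the results was tested only by a covariate for the reads outside genes and by leaving libraries out.

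The keratinocyte markers were present in all libraries but differed between the groups. Of 7 such markers tested, KRT5, KRT6A and DSG3 were called lower in each of the 4 comparisons with sgNeg, with no overlap between any knockout group and the controls. The mean of KRT5, a basal keratin, was 656 CPM in sgNeg. It was 270.3 CPM under sgPRMT5-1 and 55.9 CPM under sgPRMT5-2, against 39.97 CPM under sgWDR77-1 and 91.3 CPM under sgWDR77-2. KRT6A, a keratin of activated epidermis, had means of 21.35, 6.63, 1.73, 1.54 and 4.57 CPM in the same order, and DSG3, a desmosomal cadherin, had means of 55.4, 39.4, 30.2, 27.9 and 35.1 CPM. KRT17 rose in sgWDR77-2, from a mean of 807 to 1431 CPM, and SFN rose from 509 CPM in sgNeg to 665 in sgPRMT5-1, 692 in sgPRMT5-2 and 641 in sgWDR77-2. TP63, at 347 CPM in sgNeg, and DSC3 were not called, and KRT14, at 0.632 CPM in sgNeg, was not tested. The sum of the 8 markers, between 1935 and 2900 CPM, hides these opposite moves. The part of the marker changes in the results for the lipid genes was not tested.

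Markers of other cell types had lower sums. The 7 fibroblast markers summed to between 6.68 and 16.2 CPM, nearly all of it COL1A1, with COL1A2 at 0 in all libraries, and COL1A1 was called lower in sgPRMT5-2 (log2 fold change -0.65). The 6 leukocyte markers summed to at most 2.37 CPM and the 6 adipocyte and sebocyte markers to at most 1.15 CPM, led by ITGAM and PLIN1. ITGAM was called higher in sgPRMT5-2 (1.87) and sgWDR77-1 (2.00), from a mean of 0.402 CPM in sgNeg, and lay above sgNeg without overlap in all 4 knockout groups. The 4 endothelial markers were led by CDH5, with KDR at 0 in all libraries, and their sum was higher in sgWDR77-1, at 34.2, 31.3 and 36.1 CPM, than in sgNeg, at 22.9, 16.6 and 24.8 CPM. In the remaining groups the endothelial sum was 19.7, 21.4 and 12.7 CPM in sgPRMT5-1, 15.2, 17.2 and 17.3 CPM in sgPRMT5-2 and 19.6, 19.3 and 19.6 CPM in sgWDR77-2. CDH5 alone made up the difference in sgWDR77-1, where it was called higher (0.80). VWF, from the same list, lay below sgNeg in all 4 knockout groups and was called lower in sgPRMT5-2, with means of 2.85 CPM in sgNeg and 0.673 CPM in sgPRMT5-2. In PRMT5KO against WDR77KO, CDH5 (-0.56), VWF (-1.41) and KRT17 (-0.44) were called lower and KRT5 (1.02) and SFN (0.25) higher. Of the 7 keratinocyte markers tested, 2 were called lower and 0 higher in sgPRMT5-2 against sgPRMT5-1. In sgWDR77-2 against sgWDR77-1, 3 were called higher and 0 lower, and 1 of the 2 endothelial markers tested was called lower. The part of these markers in the results was not tested.

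Across the 4 comparisons with sgNeg, the genes called differed in number and in direction between sgRNAs. In sgPRMT5-1, 1 gene was called higher, against 1.26% of all genes tested, and 0 were called lower, against 1.61% of all genes. At an unadjusted p under 0.05 there were 7 higher and 2 lower, where 17.5% of all genes passed in either direction, and limma-trend also called 0 lower. The median log2 fold change was 0.12 over the 34 genes and 0.02 over all genes. Over the 34 genes it was 0.035 without sgNeg replicate 2. In sgPRMT5-2, 5 genes were called higher and 5 lower, which is 14.7% of the 34 genes each way, and 16.3% of all genes tested were called higher and 14.7% lower. These shares are near the background, and the median over the 34 genes was -0.01.

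In sgWDR77-1, 9 genes were called higher, or 26.5%, against 3.58% of all genes tested, and 0 were called lower, against 5.9% of all genes, with 0 called lower in limma-trend. At an unadjusted p under 0.05 there were 14 higher and 1 lower, where 23.9% of all genes passed in either direction. The median log2 fold change was 0.23 over the 34 genes and -0.01 over all genes. Over the 34 genes it was 0.08 without sgWDR77-1 replicate 3 and 0.14 without sgNeg replicate 2. In sgWDR77-2, 4 genes were called higher, or 11.8%, against 1.81% of all genes, and 0 lower, against 2.98%, with 0 called lower in limma-trend and 1 called lower with RLE scaling, with scaling by totals, with a covariate for reads that lay outside genes or with only the groups compared. The unadjusted p was under 0.05 for 12 higher and 1 lower, and for 19.6% of all genes in either direction. Its median was 0.19 over the 34 genes and 0.02 over all genes. The 4 comparisons share the 3 sgNeg libraries, so their fold changes are not independent of each other, and the values are given side by side only. Because RNA was taken from bulk cultures, a smaller share of cells expressing a gene and less RNA per cell cannot be told apart.

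**Figure D2:**
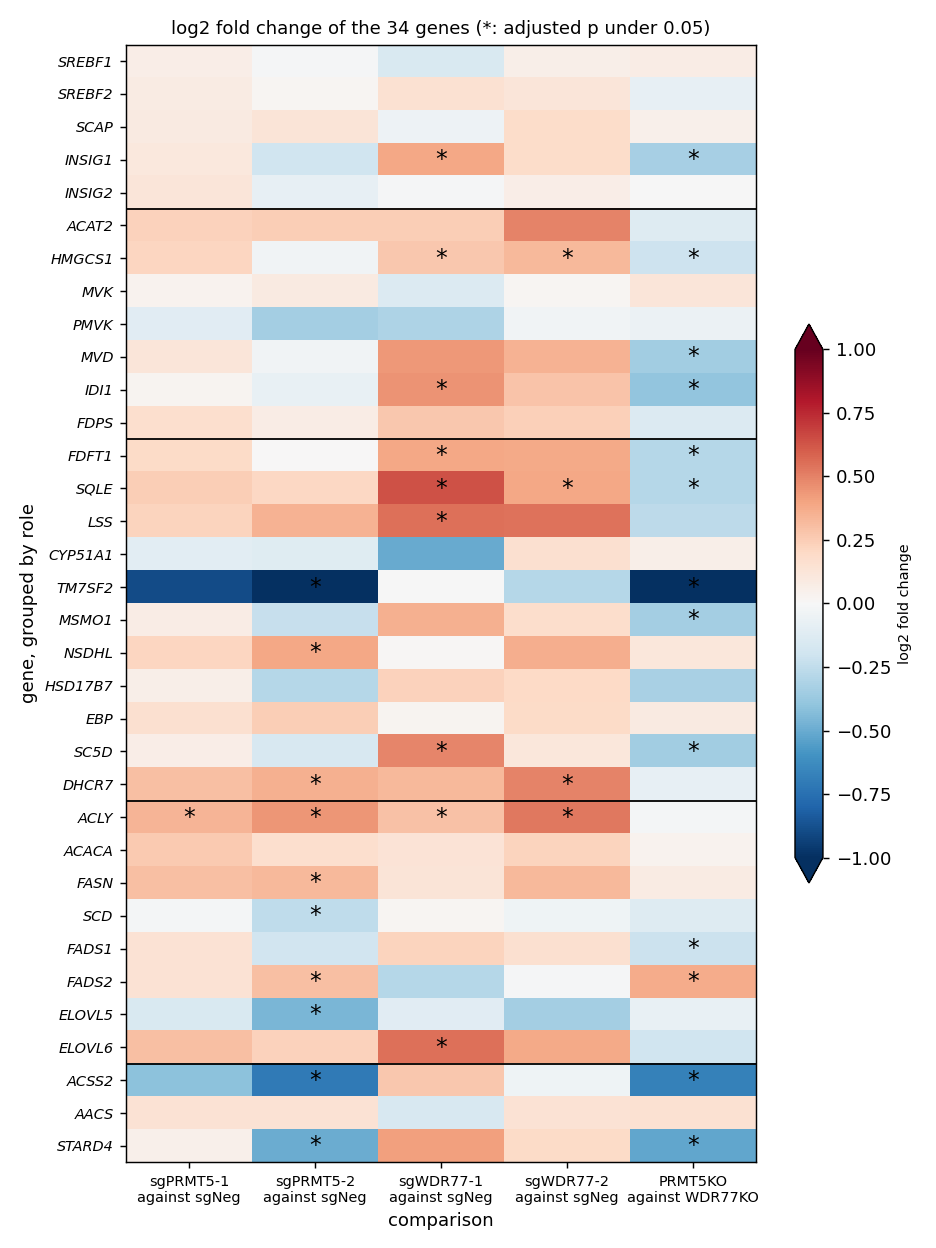
Log2 fold change (color, shown from -1 to 1, with larger values at the end colors) of the 34 genes (vertical axis, grouped by role) in 4 comparisons with sgNeg and in PRMT5KO against WDR77KO (horizontal axis). Stars mark adjusted p under 0.05 in limma voom, and the PRMT5KO against WDR77KO column holds 13 of them, 12 in the lower direction.

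The count for sgWDR77-1 rested on few libraries. It was 9 with all libraries, 2 without sgNeg replicate 2, 3 without sgNeg replicate 3, 3 without sgWDR77-1 replicate 3 and 14 without sgWDR77-1 replicate 1. It was also 3 without sgPRMT5-2 replicate 2 and 4 without sgWDR77-2 replicate 2, which enter only through the scaling, the filter and the shared estimate of the spread, and 2 when the fit held only the 6 libraries compared. For sgWDR77-2 the count of 4 became 1 without sgNeg replicate 2, 2 without sgNeg replicate 3, 2 without sgPRMT5-2 replicate 2, 10 without sgWDR77-1 replicate 1, 8 without sgWDR77-1 replicate 3, 2 without sgWDR77-2 replicate 1 and 1 without sgWDR77-2 replicate 2. Among these, 1 was called lower without sgWDR77-1 replicate 1 or sgWDR77-1 replicate 3, as it was without sgPRMT5-1 replicate 3, sgWDR77-1 replicate 2 or sgWDR77-2 replicate 3.

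The balance of 5 higher and 5 lower in sgPRMT5-2 also rested on few libraries. The 10 calls became 6 without sgNeg replicate 2 (1 higher, 5 lower), 5 without sgPRMT5-2 replicate 1 (1 higher, 4 lower), 6 without sgPRMT5-2 replicate 2 (1 higher, 5 lower) and 5 without sgPRMT5-2 replicate 3 (2 higher, 3 lower). There were 3 higher and 5 lower without sgNeg replicate 3, sgPRMT5-1 replicate 1 or sgWDR77-2 replicate 2, and 4 higher and 3 lower without sgNeg replicate 1. The count of 1 in sgPRMT5-1 became 4 without sgWDR77-1 replicate 1, with 3 higher and 1 lower. It became 0 without sgNeg replicate 1, sgNeg replicate 2, sgNeg replicate 3, sgPRMT5-1 replicate 2 or sgPRMT5-1 replicate 3. It was also 0 without sgPRMT5-2 replicate 1, sgPRMT5-2 replicate 2, sgPRMT5-2 replicate 3, sgWDR77-1 replicate 2, sgWDR77-2 replicate 2 or sgWDR77-2 replicate 3.

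The promoters were searched for letters tied to sterol control, and the SREBF2 promoter is shown because it was the only one, among the genes with an entry, with the exact letters of the sterol regulatory element core. The other 5 are those of the genes with the smallest p against sgNeg among those with an entry. Promoters were taken from RefSeq (GRCh38.p14), 250 bases before to 50 bases after a start, and 30 of the 34 genes had an entry, 9 of them with several starts. ACAT2, FASN, FDFT1 and SQLE had no entry among the 35116 promoters searched here. The motif TCACNCCAC, the sterol regulatory element core, was searched on both strands and found in 1.13% of all 35116 promoters and in 1 of the 30 genes. CCAAT, the letters bound by NF-Y, was found on either strand in 34.6% of all promoters and in 26 of the 41 promoters of these genes, or 63.4%, and CACGTG, an E-box, in 7.26% of all promoters and in 6 of the 41, or 14.6%. A match is a description of the letters and not a binding site, and a missing match does not show that a gene lacks such an element. In the sequences below, 5′ to 3′ on the strand of the gene, capitals mark any of these motifs.
SREBF2: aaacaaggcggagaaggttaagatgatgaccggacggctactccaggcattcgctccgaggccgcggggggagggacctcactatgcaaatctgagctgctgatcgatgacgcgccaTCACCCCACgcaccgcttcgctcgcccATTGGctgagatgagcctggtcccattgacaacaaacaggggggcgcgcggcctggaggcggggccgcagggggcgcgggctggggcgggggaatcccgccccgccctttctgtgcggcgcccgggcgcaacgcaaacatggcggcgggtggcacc
ACLY: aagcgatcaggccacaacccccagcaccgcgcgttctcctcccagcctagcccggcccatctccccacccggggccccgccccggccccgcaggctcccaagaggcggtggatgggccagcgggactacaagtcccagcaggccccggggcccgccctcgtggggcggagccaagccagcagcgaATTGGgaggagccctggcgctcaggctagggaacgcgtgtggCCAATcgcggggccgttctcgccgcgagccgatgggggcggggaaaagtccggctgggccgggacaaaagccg
ELOVL6: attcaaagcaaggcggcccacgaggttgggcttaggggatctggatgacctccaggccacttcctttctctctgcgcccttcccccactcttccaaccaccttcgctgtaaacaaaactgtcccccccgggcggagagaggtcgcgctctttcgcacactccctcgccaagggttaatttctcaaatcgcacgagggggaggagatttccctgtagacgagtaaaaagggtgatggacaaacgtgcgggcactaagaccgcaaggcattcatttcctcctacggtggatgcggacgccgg
ELOVL5: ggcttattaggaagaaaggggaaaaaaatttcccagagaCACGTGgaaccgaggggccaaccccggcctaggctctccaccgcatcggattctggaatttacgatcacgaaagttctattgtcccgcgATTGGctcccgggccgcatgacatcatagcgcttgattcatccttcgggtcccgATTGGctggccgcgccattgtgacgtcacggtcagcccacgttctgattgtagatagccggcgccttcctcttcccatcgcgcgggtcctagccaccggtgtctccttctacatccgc
TM7SF2: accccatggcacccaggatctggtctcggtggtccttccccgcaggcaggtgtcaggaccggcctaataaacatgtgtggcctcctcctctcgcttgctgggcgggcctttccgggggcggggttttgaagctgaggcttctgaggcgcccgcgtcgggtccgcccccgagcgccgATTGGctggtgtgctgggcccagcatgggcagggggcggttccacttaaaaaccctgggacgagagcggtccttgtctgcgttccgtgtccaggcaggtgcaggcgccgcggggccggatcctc
ACSS2: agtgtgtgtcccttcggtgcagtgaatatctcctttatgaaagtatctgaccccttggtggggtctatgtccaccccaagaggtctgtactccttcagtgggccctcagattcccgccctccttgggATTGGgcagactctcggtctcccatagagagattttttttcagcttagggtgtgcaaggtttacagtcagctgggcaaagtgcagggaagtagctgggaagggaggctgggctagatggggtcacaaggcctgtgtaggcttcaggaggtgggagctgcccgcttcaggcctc
The SREBF2 sequence lies at chr22:41832855-41833154 on the plus strand, and its TCACCCCAC begins 133 bases before the start, with a CCAAT on the other strand that begins 106 bases before it. ACLY lies at chr17:41918973-41919272 on the minus strand, with CCAAT letters that begin 65 and 23 bases before the start. ELOVL6 lies at chr4:110198566-110198865 on the minus strand and holds none of these motifs. The ELOVL5 promoter at chr6:53348901-53349200, on the minus strand, held CACGTG 211 bases before the start and CCAAT letters 122 and 68 bases before it. TM7SF2 lies at chr11:65111622-65111921 on the plus strand, with CCAAT letters 74 bases before the start, and ACSS2 at chr20:34874739-34875038 on the plus strand, with CCAAT letters 123 bases before it. ACLY and ACSS2 each have 2 starts, of which the one listed first is shown, and the other promoter of ACSS2 holds none of these motifs.

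The SREBP factors themselves showed no call in any of the 7 comparisons. SREBF1, the factor tied mainly to fatty acid genes (ENSG00000072310.18, chr17:17810399-17837002, minus strand), had 164, 171 and 211 CPM in sgNeg, 187, 175 and 206 in sgPRMT5-1, 175, 178 and 183 in sgPRMT5-2, 127, 179 and 188 in sgWDR77-1, and 211, 181 and 174 in sgWDR77-2. The groups overlapped, and sgWDR77-1 replicate 1 was the lowest library. SREBF2, tied mainly to sterol genes (ENSG00000198911.12, chr22:41833105-41907306, plus strand), had 622, 546 and 554 CPM in sgNeg, 629, 596 and 596 in sgPRMT5-1, 577, 567 and 595 in sgPRMT5-2, 553, 622 and 747 in sgWDR77-1, and 617, 600.1 and 650.4 in sgWDR77-2. Every group overlapped sgNeg, and sgWDR77-1 replicate 3 was the highest library. SCAP, the sterol-sensing escort of SREBP (ENSG00000114650.20, chr3:47413681-47477126, minus strand), had 68.7, 54.7 and 61.0 CPM in sgNeg, 61.4, 63.3 and 71.6 in sgPRMT5-1, 60.9, 68.7 and 72.2 in sgPRMT5-2, 50.2, 56.3 and 72.4 in sgWDR77-1, and 72.6, 67.7 and 68.2 in sgWDR77-2. Again the groups overlapped sgNeg. Over the 4 comparisons with sgNeg, the log2 fold changes ran from -0.15 to 0.07 for SREBF1, from 0.02 to 0.15 for SREBF2 and from -0.05 to 0.18 for SCAP.

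INSIG1, which retains SCAP and is itself an SREBP target, was the one gene of this group that was called. INSIG1 (ENSG00000186480.13, chr7:155297776-155310235, plus strand) had 315, 263 and 276 CPM in sgNeg, 322, 333 and 266 in sgPRMT5-1, 249.5, 253 and 239 in sgPRMT5-2, 333, 348 and 442 in sgWDR77-1, and 276, 341 and 357 in sgWDR77-2. All 3 sgWDR77-1 libraries lay above sgNeg and all 3 sgPRMT5-2 libraries below it, while the other groups overlapped sgNeg. The log2 fold change was 0.39 ± 0.12 in sgWDR77-1, with an adjusted p of 0.0377 in limma voom, and the call was lost in 9 of 24 alternatives, 2 of them the omission of sgNeg replicate 2 or of sgNeg replicate 3. In sgPRMT5-2 INSIG1 was not called. INSIG2, a second retention protein (ENSG00000125629.15, chr2:118088452-118110997, plus strand), had 31.8, 32.2 and 29.0 CPM in sgNeg, 34.8, 37.8 and 29.1 in sgPRMT5-1, 27.4, 29.8 and 31.0 in sgPRMT5-2, 29.0, 26.3 and 38.1 in sgWDR77-1, and 27.9, 30.2 and 40.3 in sgWDR77-2. Its groups overlapped, and it was called in none of the 7 comparisons.

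Among the 7 genes of the early mevalonate and isoprenoid steps, 2 were called higher in sgWDR77-1, where 3.58% of all genes were, and 1 in sgWDR77-2, where 1.81% were. None was called in sgPRMT5-1 or sgPRMT5-2, where 1.26% and 16.3% of all genes were called higher, and the groups were not tested against each other in these counts. HMGCS1, which makes HMG-CoA (ENSG00000112972.15, chr5:43287470-43313512, minus strand), had 544, 478 and 466 CPM in sgNeg, 578, 609 and 542 in sgPRMT5-1, 501, 475 and 473 in sgPRMT5-2, 582, 566 and 646 in sgWDR77-1, and 588, 636 and 636 in sgWDR77-2. Both WDR77KO groups lay above sgNeg without overlap. HMGCS1 rose 1.21-fold in sgWDR77-1 (log2 fold change 0.27 ± 0.08, adjusted p 0.0461) and 1.25-fold in sgWDR77-2 (0.32 ± 0.08, adjusted p 0.0266), calls that were lost in 15 and 5 of 24 alternatives. IDI1, which interconverts the 5-carbon isoprenoid units (ENSG00000067064.12, chr10:1039152-1049119, minus strand), had 134, 116 and 117 CPM in sgNeg, 121, 146 and 109 in sgPRMT5-1, 117, 115 and 115 in sgPRMT5-2, 183, 150.3 and 166 in sgWDR77-1, and 128, 150.5 and 170.5 in sgWDR77-2. It rose 1.36-fold in sgWDR77-1 (log2 fold change 0.45 ± 0.12, adjusted p 0.0171), where no library overlapped sgNeg, while every other group overlapped it, and the call was lost in 3 of 24 alternatives, those without sgNeg replicate 2, without sgNeg replicate 3 or with only the groups compared. ACAT2, which joins acetyl-CoA units (ENSG00000120437.9, chr6:159762045-159779112, plus strand), had 25.7, 19.7 and 24.9 CPM in sgNeg, 25.8, 27.8 and 28.4 in sgPRMT5-1, 25.8, 27.5 and 29.8 in sgPRMT5-2, 25.7, 24.1 and 33.6 in sgWDR77-1, and 35.8, 36.0 and 27.4 in sgWDR77-2. Only sgWDR77-1 overlapped sgNeg, and the 2 highest libraries were in sgWDR77-2, where the log2 fold change of 0.50 had an adjusted p of 0.0596 and was not called.

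The remaining genes of these steps were called in no comparison with sgNeg. MVK and PMVK, the kinases of mevalonate and phosphomevalonate, had log2 fold changes of -0.14 to 0.09 and -0.34 to -0.03. FDPS, which makes farnesyl diphosphate, had log2 fold changes of 0.07 to 0.27. MVD, the decarboxylase before IDI1, had means of 29.8 CPM in sgNeg and 41.7 ± 14.8 CPM (SD, n = 3) in sgWDR77-1, where replicate 3 alone had 57.3 CPM. In sgWDR77-2 MVD had 38.1, 36.2 and 39.1 CPM, above the highest sgNeg library, at 32.7 CPM.

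Among the 11 genes from squalene to cholesterol, 4 were called higher in sgWDR77-1 (3.58% of all genes) and 2 in sgWDR77-2 (1.81% of all genes). In sgPRMT5-2, 2 were called higher and 1 lower, near the 16.3% and 14.7% of all genes. SQLE, squalene epoxidase (ENSG00000104549.12, chromosome 8), had 438, 328 and 352 CPM in sgNeg, 440.2, 455 and 423 in sgPRMT5-1, 434, 424 and 422 in sgPRMT5-2, 647, 489.6 and 601 in sgWDR77-1, and 463, 486 and 506 in sgWDR77-2. All 6 WDR77KO libraries lay above all 3 sgNeg libraries and above all 6 PRMT5KO libraries. SQLE rose 1.56-fold in sgWDR77-1 (log2 fold change 0.64 ± 0.10, adjusted p 0.000446), a call kept in all 24 alternatives, and 1.31-fold in sgWDR77-2 (0.39 ± 0.10, adjusted p 0.0322), a call lost in 6. DHCR7, the enzyme that completes the Kandutsch-Russell branch (ENSG00000172893.17, chr11:71428193-71452868, minus strand), had 192, 155 and 185 CPM in sgNeg, 208, 221 and 226 in sgPRMT5-1, 224, 225 and 228 in sgPRMT5-2, 173, 229.9 and 275 in sgWDR77-1, and 265, 239 and 244 in sgWDR77-2. Only sgWDR77-1 overlapped sgNeg, through its replicate 1. DHCR7 rose 1.41-fold in sgWDR77-2 (0.49 ± 0.12, adjusted p 0.0180) and 1.28-fold in sgPRMT5-2 (0.35 ± 0.12, adjusted p 0.0304), calls lost in 5 and 8 of 24 alternatives.

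TM7SF2, a sterol C14-reductase, moved the other way in PRMT5KO cells and had few reads. TM7SF2 (ENSG00000149809.17, chr11:65111845-65116384, plus strand) had 8.80, 10.4 and 7.26 CPM in sgNeg, 5.81, 4.75 and 3.60 in sgPRMT5-1, 2.80, 3.4 and 2.03 in sgPRMT5-2, 4.80, 8.88 and 15.5 in sgWDR77-1, and 5.58, 7.07 and 9.18 in sgWDR77-2. Both PRMT5KO groups lay below sgNeg without overlap, and the sgWDR77-1 libraries spread from 4.80 CPM, below sgNeg, to 15.5 CPM, the highest value of all. In sgPRMT5-2 it fell to 31.3% of sgNeg (log2 fold change -1.68 ± 0.39, adjusted p 0.00275), a call kept in all 24 alternatives. In sgPRMT5-1 the log2 fold change was -0.90, with an adjusted p of 0.160, and was not called. The other genes called higher were LSS, lanosterol synthase (log2 fold change 0.55), SC5D, a sterol desaturase (0.49), and FDFT1, squalene synthase (0.39), in sgWDR77-1, and NSDHL, of the C4 demethylation (0.39), in sgPRMT5-2. The sgWDR77-1 libraries overlapped sgNeg for LSS and FDFT1 and not for SC5D. The adjusted p for FDFT1 was 0.0498, and that call was lost in 14 of 24 alternatives. The calls for LSS and SC5D were lost in 7 and 8, among them the omission of sgWDR77-1 replicate 1 or of sgWDR77-1 replicate 3, and that for NSDHL in 5. MSMO1, another C4 demethylation enzyme, was not called against sgNeg, and EBP, HSD17B7 and CYP51A1 were called in no comparison.

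**Figure D3:**
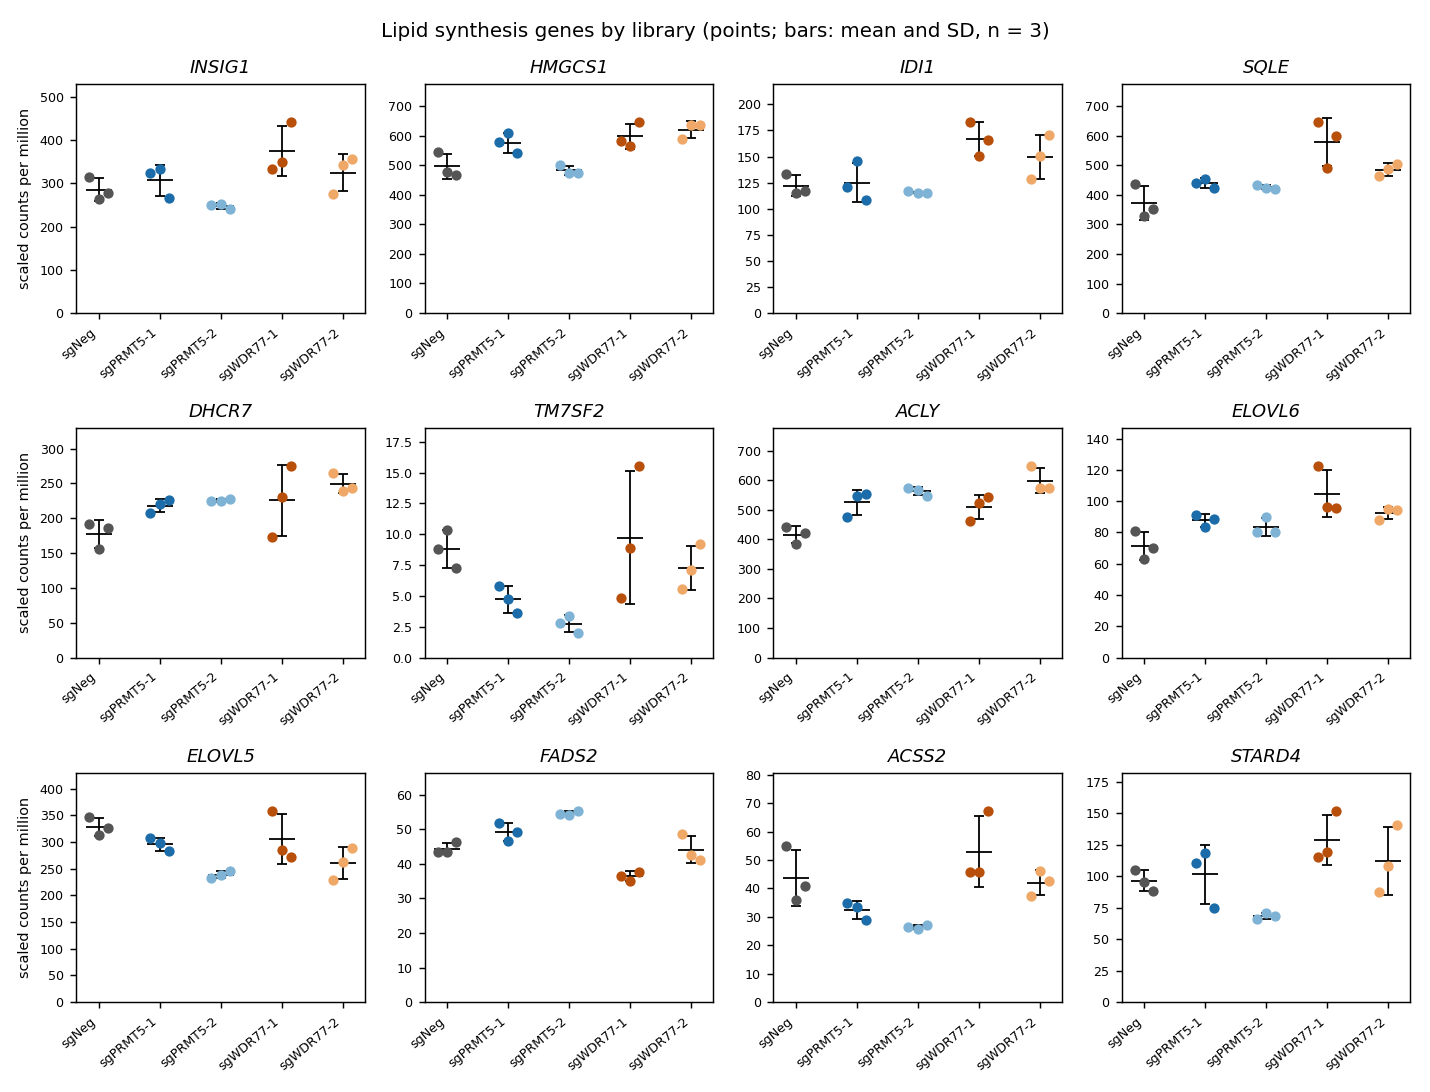
Scaled CPM (vertical axes, from 0) of 12 genes in each library (points), with the mean and SD of each group (n = 3). SQLE and HMGCS1 lie above sgNeg in all 6 WDR77KO libraries, whereas ACSS2 and TM7SF2 have their lowest means in sgPRMT5-2, and the sgWDR77-1 libraries are widely spread for TM7SF2 and DHCR7.

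Of the 8 fatty acid genes, 3 were called higher and 2 lower in sgPRMT5-2, where 16.3% of all genes were called higher and 14.7% lower. In sgWDR77-1, 2 were called higher (3.58% of all genes), and 1 each in sgWDR77-2 (1.81%) and sgPRMT5-1 (1.26%). ACLY, which makes cytosolic acetyl-CoA from citrate (ENSG00000131473.17, chr17:41866917-41930542, minus strand), had 442, 385 and 419.9 CPM in sgNeg, 477, 545 and 554 in sgPRMT5-1, 575, 566 and 548 in sgPRMT5-2, 464, 523 and 542 in sgWDR77-1, and 647, 573 and 574 in sgWDR77-2. All 12 knockout libraries lay above all 3 sgNeg libraries. ACLY was the gene called higher in each comparison with sgNeg, by 1.26-fold in sgPRMT5-1 (adjusted p 0.0399), 1.36-fold in sgPRMT5-2 (0.000748), 1.23-fold in sgWDR77-1 (0.0412) and 1.44-fold in sgWDR77-2 (0.000811). The calls in sgPRMT5-2 and sgWDR77-2 were kept in all 24 alternatives, and those in sgPRMT5-1 and sgWDR77-1 were lost in 16 and 13, among them the omission of any sgNeg library. ELOVL6, which elongates saturated C16 chains (ENSG00000170522.10, chr4:110045846-110199199, minus strand), had 80.8, 63.3 and 70.0 CPM in sgNeg, 91.2, 83.3 and 88.5 in sgPRMT5-1, 80.1, 89.9 and 80.4 in sgPRMT5-2, 122, 96.1 and 96.0 in sgWDR77-1, and 87.8, 94.9 and 94.5 in sgWDR77-2. Only sgPRMT5-2 overlapped sgNeg, and the gene was called in sgWDR77-1 alone, where it rose 1.47-fold (log2 fold change 0.55 ± 0.11, adjusted p 0.00293).

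ELOVL5, which elongates polyunsaturated chains (ENSG00000012660.14, chr6:53267398-53349179, minus strand), had 346, 312 and 326 CPM in sgNeg, 307, 297 and 283 in sgPRMT5-1, 232, 238 and 246 in sgPRMT5-2, 358, 285 and 272 in sgWDR77-1, and 229, 263 and 289 in sgWDR77-2. It fell to 72.8% of sgNeg in sgPRMT5-2 (log2 fold change -0.46 ± 0.10, adjusted p 0.00165), a call kept in all 24 alternatives. Every group but sgWDR77-1 lay below sgNeg without overlap. SCD, the stearoyl-CoA desaturase, also fell in sgPRMT5-2 (-0.26), while FASN, the fatty acid synthase (0.32), and FADS2, the delta-6 desaturase (0.30), rose there. FASN had an adjusted p of 0.0457, and its call was lost in 15 of 24 alternatives. The FADS2 call was lost in 7, among them the omission of any sgNeg or any sgPRMT5-2 library, and the SCD call in 4. ACACA, which makes malonyl-CoA, had log2 fold changes of 0.14 to 0.26 against sgNeg and was not called. As for ACLY, its knockout libraries all lay above its sgNeg libraries, which had 192, 198 and 200.3 CPM. FADS1, the delta-5 desaturase, was not called against sgNeg.

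Of the 3 genes of acetate use and sterol carriage, ACSS2 and STARD4 were called lower in sgPRMT5-2, as were 14.7% of all genes. ACSS2, which makes acetyl-CoA from acetate (ENSG00000131069.20, chr20:34872146-34927962, plus strand), had 54.9, 35.8 and 40.8 CPM in sgNeg, 35.0, 33.6 and 28.9 in sgPRMT5-1, 26.6, 25.7 and 27.1 in sgPRMT5-2, 45.8, 45.7 and 67.3 in sgWDR77-1, and 37.4, 46.1 and 42.7 in sgWDR77-2. All 6 PRMT5KO libraries lay below all 3 sgNeg libraries and all 6 WDR77KO libraries. It fell to 61.4% of sgNeg in sgPRMT5-2 (log2 fold change -0.70 ± 0.17, adjusted p 0.00277), a call kept in all 24 alternatives. STARD4, a cytosolic sterol carrier (ENSG00000164211.13, chr5:111496033-111512590, minus strand), had 105, 95.7 and 88.5 CPM in sgNeg, 111, 118 and 74.8 in sgPRMT5-1, 66.1, 70.9 and 68.0 in sgPRMT5-2, 115, 119 and 152 in sgWDR77-1, and 87.0, 108 and 141 in sgWDR77-2. It fell to 71.0% in sgPRMT5-2 (-0.49 ± 0.16, adjusted p 0.0263), with no overlap, a call lost in 5 of 24 alternatives. These left out sgNeg replicate 1, sgNeg replicate 2, sgPRMT5-2 replicate 1 or sgPRMT5-2 replicate 3, or used no filter. The sgWDR77-1 libraries lay above sgNeg, and the sgPRMT5-1 libraries spread across it. AACS, which activates acetoacetate (ENSG00000081760.17, chr12:125065434-125143333, plus strand), had 81.3, 89.7 and 93.6 CPM in sgNeg, 90.9, 92.3 and 109.6 in sgPRMT5-1, 96.5, 98.9 and 96.6 in sgPRMT5-2, 66.7, 88.5 and 83.4 in sgWDR77-1, and 103, 99.3 and 89.7 in sgWDR77-2. Its sgPRMT5-2 libraries lay above sgNeg, the other groups overlapped it, and it was called in no comparison.

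In the comparison of PRMT5KO with WDR77KO, most of the calls were lower in PRMT5KO, and the sgNeg libraries entered only through the scaling, the filter and the shared estimate of the spread. Each side is the mean of its sgRNA groups, and the errors come from the spread of libraries within those groups. The p-values therefore do not cover differences between sgRNAs of the same gene, and a call can rest mainly on a single sgRNA. Of the 34 genes, 12 were called lower in PRMT5KO, or 35.3%, against 11.4% of all genes tested, and 1 was called higher, against 15.7% of all genes. The median log2 fold change was -0.13 over the 34 genes and 0.02 over all genes. Over the 34 genes it was -0.21 without sgWDR77-1 replicate 1 and -0.09 without sgWDR77-1 replicate 3. TM7SF2 (-1.14 ± 0.27, adjusted p 0.00301), ACSS2 (-0.67 ± 0.12, adjusted p 0.000205) and STARD4 (-0.52 ± 0.11, adjusted p 0.00182) had the largest differences. IDI1 (-0.39), SC5D (-0.35), MVD (-0.34), MSMO1 (-0.34), INSIG1 (-0.33), SQLE (-0.29), FDFT1 (-0.29), FADS1 (-0.21) and HMGCS1 (-0.21) were also lower in PRMT5KO, and FADS2 (0.37 ± 0.07, adjusted p 0.000702) was higher. Of the 6 PRMT5KO and 6 WDR77KO libraries, SQLE and ACSS2 did not overlap, and the other genes called did. FADS1 and STARD4 were also called lower in sgPRMT5-2 than in sgPRMT5-1. The mean of FADS1 was 298 CPM in sgPRMT5-1 and 238 CPM in sgPRMT5-2. It was 271 CPM in sgNeg, 316 CPM in sgWDR77-1 and 301 CPM in sgWDR77-2. In sgPRMT5-1 and sgWDR77-2, the means were 104 and 108 CPM for SC5D and 278 and 299 CPM for MSMO1. For ACSS2 they were 32.5 and 42.0 CPM. By role, 5 of the 11 genes from squalene to cholesterol, 3 of the 7 early genes, 1 of the 5 SREBP genes, 1 of the 8 fatty acid genes and 2 of the 3 acetate and carriage genes were called lower. The count of 13 calls lay between 11 and 18 when any library was left out and between 12 and 17 under the other alternatives. The call for MVD had an adjusted p of 0.0416 and was lost in 15 of 24 alternatives, and that for SC5D was lost in 1.

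**Figure D4:**
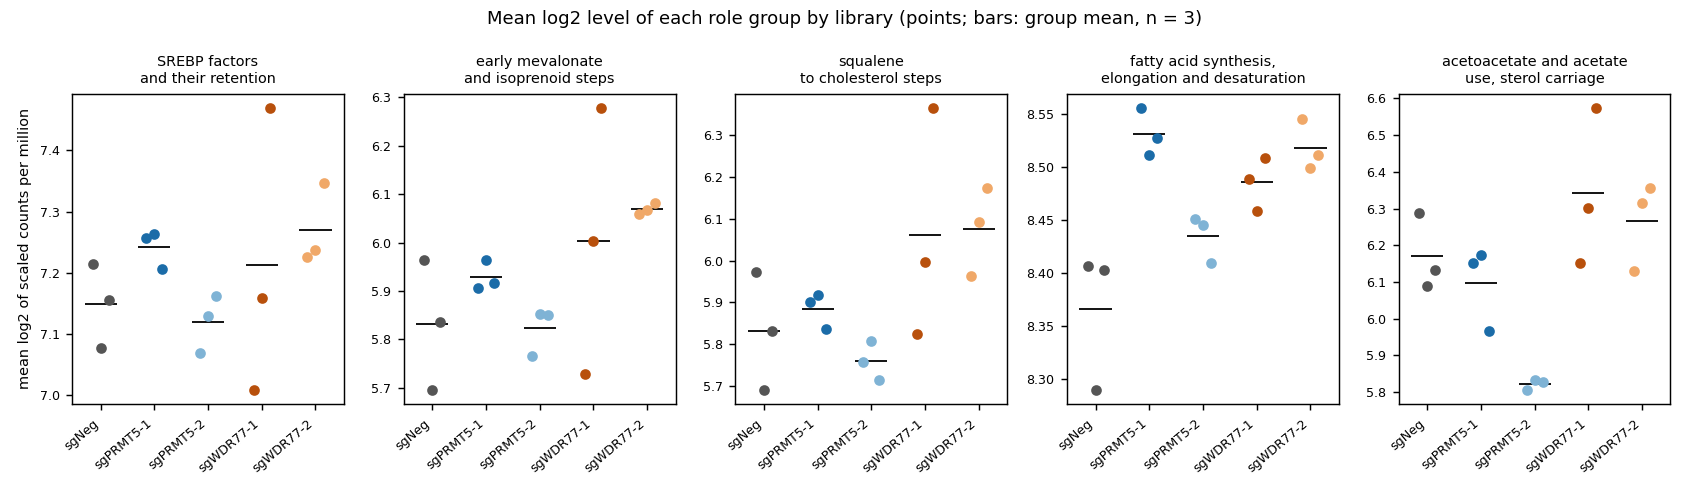
Mean log2 of scaled CPM over the genes of each role (vertical axes, which do not start at 0) in each library (points), with the group mean (line, n = 3). In the panel of squalene to cholesterol steps, sgWDR77-1 spans from 5.82 in replicate 1 to 6.36 in replicate 3, a wider range than any other group shows there.

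The sgRNAs of a gene were also compared, with 3 libraries on each side. In sgPRMT5-2 against sgPRMT5-1, 2 of the 34 genes were called lower, against 3.98% of all genes tested, and 0 higher, against 3.55%, with 0 called higher in limma-trend. The unadjusted p was under 0.05 for 7 lower and 0 higher, and for 23.9% of all genes in either direction. The 2 genes called lower were FADS1 (-0.33 ± 0.08, adjusted p 0.0172) and STARD4 (-0.54 ± 0.16, adjusted p 0.0456). The STARD4 call was lost in 15 of 24 alternatives and the FADS1 call in 3. The count of 2 became 0 without sgPRMT5-1 replicate 1, sgPRMT5-1 replicate 2 or sgPRMT5-2 replicate 3. It became 1 without sgNeg replicate 1, sgNeg replicate 2, sgNeg replicate 3, sgPRMT5-2 replicate 1, sgPRMT5-2 replicate 2, sgWDR77-1 replicate 2 or sgWDR77-2 replicate 2. It rose to 4 without sgPRMT5-1 replicate 3 or sgWDR77-1 replicate 3 and to 6 without sgWDR77-1 replicate 1, and it was 7 with only the groups compared. In sgWDR77-2 against sgWDR77-1, 0 of the 34 genes were called higher, against 1.84% of all genes, and 0 lower, against 0.569%, in limma voom and also in limma-trend. The unadjusted p was under 0.05 for 4 higher and 3 lower, and for 18.9% of all genes in either direction. A missed threshold does not show that the sgRNAs act alike. The sgWDR77-1 libraries were widely spread, and the part of that spread in the 0 calls was not tested. Without sgWDR77-1 replicate 1 the count was also 0, with 505 calls over all genes, against 339 with all libraries.

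Per length of exon the genes differed widely in level. In sgNeg the lowest were CYP51A1, at 2.22 CPM per kb, and TM7SF2, at 2.58 CPM per kb, and the highest were FASN, at 293 CPM per kb, and SCD, at 422 CPM per kb. Among the sterol enzymes the highest were MSMO1, at 92.7 CPM per kb, and SQLE, at 86.6 CPM per kb. SREBF2 stood at 71.3 CPM per kb and SREBF1 at 22.1 CPM per kb in sgNeg, and SREBF2 was also the higher of the pair in the other groups. Lengths are the joined exons of all annotated transcripts in GENCODE v44, so the level of a gene that uses a short transcript is understated.

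**Figure D5:**
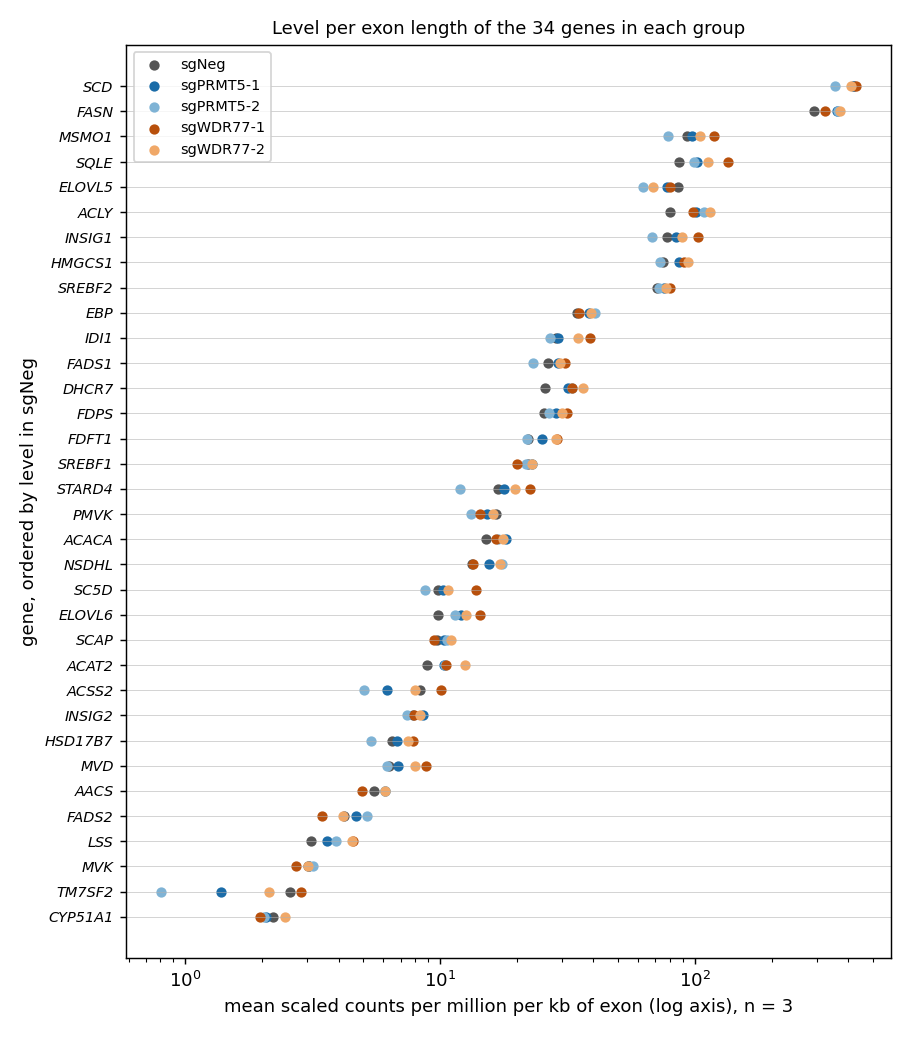
Mean scaled CPM per kb of exon (horizontal log axis, n = 3) of each of the 34 genes (vertical axis, ordered by sgNeg) in the 5 groups (colors). The sgNeg levels run from CYP51A1 to SCD, and the groups lie close together for most genes, with TM7SF2 lowest in sgPRMT5-2, at 0.805 CPM per kb.

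Some of these genes share exon bases with other genes, and reads there may have been discarded as ambiguous or, without strand, taken from the partner. CYP51A1 shares 68.2% of its exon bases with genes on its own strand and EBP 36.4%. HMGCS1 shares 37.7%, ACAT2 22.2%, FDPS 18.6% and IDI1 15% with genes on the opposite strand, and FADS1 and FADS2 overlap each other. The levels of these genes are therefore uncertain, and a pseudogene may take reads of HSD17B7.

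Genes around the pathway were also examined, from lists that hold none of the 34 genes. Their counts stand against 16.3% of all genes called higher and 14.7% lower in sgPRMT5-2, 1.26% and 1.61% in sgPRMT5-1, 3.58% and 5.9% in sgWDR77-1, and 1.81% and 2.98% in sgWDR77-2. At these shares, the counts for SREBP processing, LXR and the isoprenoid branch in sgPRMT5-2 are near those of all genes, and more calls there than in other groups are not particular to the lists. Of 11 genes of SREBP processing and stability, 2 were called higher and 2 lower in sgPRMT5-2, 2 lower in sgWDR77-1, 1 lower in sgWDR77-2 and none in sgPRMT5-1. ERLIN2, of the complex that degrades sterol-regulated proteins, fell in sgPRMT5-2 (-0.70), sgWDR77-1 (-0.76) and sgWDR77-2 (-0.64), while MBTPS2, a protease of SREBP release, fell (-0.43) and UBE2G2 rose (0.49) in sgPRMT5-2. Of 7 genes of LXR and its targets, 1 was called higher and 1 lower in sgPRMT5-2, namely the sterol exporter ABCA1 (0.81) and the receptor NR1H3 (-0.84), and none in the other 3 groups. In PRMT5KO against WDR77KO, where 15.7% of all genes were called higher and 11.4% lower, ABCA1 (0.83) and ABCG1, another exporter (0.77), were called higher and NR1H3 (-0.69) lower. Of 11 tested genes of sterol transport and storage, 3 were called higher and 2 lower in sgPRMT5-2, and 1 lower in each other group, which was GRAMD1B in all 3. GRAMD1B, a sterol transfer protein, fell by 0.90 on the log2 scale in sgPRMT5-1 and by 1.63 in sgPRMT5-2, and it fell by 2.38 in sgWDR77-1 and fell by 2.08 in sgWDR77-2. LIPA, the lysosomal lipase, fell (-0.66) and OSBPL2 rose (0.33) in sgPRMT5-2.

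Of 23 tested genes of fatty acid supply, activation and elongation, 3 were called higher and 8 lower in sgPRMT5-2, 3 higher in sgWDR77-1, 1 higher in sgPRMT5-1 and none in sgWDR77-2. LPIN1 rose in sgPRMT5-2 (0.66) and sgWDR77-1 (0.50), FADS3 rose in sgPRMT5-2 (0.71) and sgPRMT5-1 (0.44), and ACSL1, which activates fatty acids, fell in sgPRMT5-2 (-0.66). Of 11 tested genes of sphingolipids and barrier lipids, 4 were called higher and 1 lower in sgPRMT5-2 and 1 higher in sgWDR77-1. SPTLC2, of the enzyme that begins sphingolipid synthesis, fell (-0.64), and DEGS1 (0.41) and CERS2 (0.36), of ceramide synthesis, rose in sgPRMT5-2. Of 10 genes of the isoprenoid branch, 2 were called higher and 1 lower in sgPRMT5-2 and none in the other 3 groups, with PDSS1 (0.67) and ICMT (0.30) higher and GGPS1 (-0.43) lower.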

How the data were processed

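Whole-number counts per gene were deposited by the authors, from their STAR alignments to hg38 and HTSeq counting, and they were not normalized. The methods and the labels name different library kits, and the strand setting and the annotation release are not given in the sources used here. Groups and replicate numbers came from the sample labels. HTSeq's 5 summary entries per library entered neither the totals nor the tests. They put 2.75% to 7.16% of the listed reads outside genes, called 7.09% to 7.93% ambiguous, and placed 9.49% to 13.1% at several sites.

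Counts were scaled by TMM (trimming 0.3 of the ratios and 0.05 of the averages), and limma voom (limma 3.58.1, R 4.3.3) was fitted across all 15 libraries with 5 groups and no covariate. Genes with a mean normalized count of at least 3 were tested, with Benjamini-Hochberg adjustment over all of them and a threshold of 0.05. PRMT5KO and WDR77KO are the means of their sgRNA groups. limma voom stands in for the authors' DESeq2, because an automatic check of units failed to read the data. The values are whole-number counts, so this was a limit of the check and not of the data. The fit was tested on simulated data for every comparison but PRMT5KO against WDR77KO. The simulation gave all genes the same dispersion, held no outlying library and used larger changes than most of those called here. It therefore does not measure how reliable the calls are under the spread of these libraries.

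The text names each of the 34 genes that was called in any comparison. It gives every library for the SREBP genes and for the 3 genes of each other role with the smallest p against sgNeg, and for other lists up to 3 genes with the smallest adjusted p. The genes and lists were chosen with earlier results of these data known. Gene positions and exon lengths came from GENCODE v44 on GRCh38, to which 60463 of 60649 identifiers matched.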

Additional observations from a re-analysis of the deposited data

Results flagged for a closer look

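Effects that differed between the knockouts were tested directly, with errors that do not cover differences between sgRNAs of the same gene. In PRMT5KO against WDR77KO, log2 fold changes past the threshold in limma voom were -1.14 for TM7SF2, -0.67 for ACSS2, -0.52 for STARD4, -0.39 for IDI1, -0.35 for SC5D, -0.34 for MVD, -0.34 for MSMO1, -0.33 for INSIG1, -0.29 for SQLE, -0.29 for FDFT1, -0.21 for FADS1, -0.21 for HMGCS1 and 0.37 for FADS2. Between the sgRNAs of PRMT5 they were -0.33 for FADS1 and -0.54 for STARD4 in sgPRMT5-2 against sgPRMT5-1. Single outlying libraries were not tested for in groups of 3.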

How the results depend on the processing

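Of the 39 calls of single genes, 18 were kept in all 24 alternatives, and none of the 936 values changed direction, while 179 missed the threshold. Reads outside genes as a covariate were chosen after seeing the data. The count of calls in sgPRMT5-1, 1 with all libraries, was 0 with RLE scaling, library totals alone, the replicate block, limma-trend and the covariate, and 2 without a filter and with only the groups compared. In sgWDR77-1 the count of 9 was 5 with the replicate block and 2 with only the groups compared. In sgPRMT5-2 against sgPRMT5-1 the count of 2 was 1 with RLE scaling, upper quartile scaling, the replicate block and the covariate, 5 with library totals alone and 7 with only the groups compared. In sgPRMT5-2 against sgNeg the split of 5 higher and 5 lower was 7 and 4 with upper quartile scaling and 1 and 6 with library totals alone. With only the groups compared it was 5 and 8. The cause of these changes was not tested.

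When each library was left out in turn, the count lay between 0 and 4 in sgPRMT5-1, 5 and 11 in sgPRMT5-2, 2 and 14 in sgWDR77-1, 1 and 10 in sgWDR77-2, 0 and 6 in sgPRMT5-2 against sgPRMT5-1, 11 and 18 in PRMT5KO against WDR77KO, and was 0 throughout in sgWDR77-2 against sgWDR77-1. The highest count in sgPRMT5-1 was reached without sgWDR77-1 replicate 1. Against sgNeg, the log2 fold changes of PRMT5 and WDR77 under their own sgRNAs stayed past the threshold in every alternative. The replicate numbers did not pair the libraries, since the correlation of deviations of same-numbered libraries was over 0.1 in 2 of 30 pairs, from -0.23 to 0.19, and 5 of 15 libraries were closest to their own number. The replicate block left 14 calls in PRMT5KO against WDR77KO, 9 in sgPRMT5-2 and 4 in sgWDR77-2. edgeR and DESeq2, planned as alternatives, were not run. With at most 6730428 reads on genes, genes of few reads such as TM7SF2 and CYP51A1 have wide errors.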
